A study of Mus musculus with 4 samples.

Results

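Mural cells are the pericytes and smooth muscle cells that wrap the endothelial tube of a blood vessel. In single-cell RNA libraries of the mouse renal capsule, a fibrous layer that encloses the kidney, 66 of 37361 kept barcodes met a mural definition. The study compared capsules of young and of aged untreated mice, with 2 libraries per age made from digested whole capsules with a droplet kit that counts unique molecular identifiers (UMIs) at the 3' end of transcripts. Neither group carries a named allele or agent. The labels state neither age in months nor mouse strain nor mice per library. Libraries of an age may therefore be technical replicates, and p-values reflect their spread alone.

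Barcodes were kept from 500 UMIs and 300 genes upward where mitochondrial transcripts made up 20% or less. Mural barcodes were chosen by their counts of 8 genes. Each held at least 3 UMIs of Rgs5, Notch3, Cspg4, Kcnj8 and Higd1b together, from at least 2 of these genes, and no UMI of the endothelial genes Pecam1 and Cdh5 or of the leukocyte gene Ptprc. Young replicate 1 held 14, young replicate 2 held 16, aged replicate 1 held 14 and aged replicate 2 held 22 mural barcodes. Their median UMIs were 3768.5, 5265, 3345 and 1890.5 in that order, which is used for all values of 4 libraries. All kept barcodes of the same libraries had medians of 7133, 7068, 6208 and 4321 UMIs. The libraries shared 18 to 37 barcode sequences per pair, and 0 of the shared sequences were mural in both libraries.

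Pericytes sit within the basement membrane of capillaries, touch endothelial cells directly and are held there by platelet-derived growth factor signalling through Pdgfrb. Smooth muscle cells circle arterioles and larger vessels and set vessel width by contraction of actin and myosin. Notch3, which receives ligands from the endothelium, is needed for arterial smooth muscle to mature, and ATP-sensitive potassium channels and cyclic GMP set the tone of both kinds of cell. In the kidney, some arteriolar mural cells make renin. The same tube of cells is embedded in collagen IV and laminin that mural and endothelial cells lay down together.

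The values that chose the barcodes are given as a description. Of the 66 barcodes, 20 held UMIs of 2 of the 5 defining genes, 14 of 3, 15 of 4 and 17 of all 5. Rgs5, which speeds the shut-off of G protein signals, was detected in 60 barcodes, and the receptor gene Notch3 in 58. Kcnj8, the pore of a vascular potassium channel, and Higd1b, a mitochondrial protein gene, were each detected in 41, and the proteoglycan gene Cspg4 (NG2) in 27. Just inside the threshold lay 8 barcodes with 3 UMIs and 2 with 4 UMIs of these genes. Just outside lay 12 barcodes with 2 UMIs of 2 genes and 12 with at least 3 UMIs of a single gene. The median count of defining UMIs was 18, 17.5, 18.5 and 9 in the 4 libraries.

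Barcodes that met the mural side of the definition but held Pecam1 or Cdh5 were more numerous than the members. There were 79 of them, 32, 26, 5 and 16 in the 4 libraries, and their median UMIs were 12062, 8653.5, 8908 and 7094, above those of the members in each library. Of the 79, 63 held Kdr and 73 held Flt1, receptors for vascular endothelial growth factor. Of the 66 members, 0 held Kdr and 1 held Flt1, while 19 held Emcn, an endothelial surface glycoprotein. A further 21 barcodes met the mural side and held Ptprc, 3, 2, 6 and 10 in the 4 libraries. The members are the mural barcodes without endothelial or leukocyte defining transcripts, not all barcodes with mural transcripts.

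The label was checked against genes the definition did not use. Among the 66 barcodes, Pdgfrb was detected in 56, Abcc9, the regulatory partner of Kcnj8 in its channel, in 39, Acta2 (smooth muscle actin) in 41 and Myh11 (smooth muscle myosin) in 30. Fibroblast transcripts split the members into separate sets. In 10 barcodes, 4, 4, 0 and 2 in the 4 libraries, the fibroblast genes Pdgfra, Dpt, Dcn and Lum summed to at least 10 UMIs, a bound chosen after the counts were seen. These 10 held 14 to 223 fibroblast UMIs (median 85), only 3 to 18 UMIs of the 5 mural genes (median 3), and no Acta2 in 8 of 10. They also held 59.0%, 34.3%, 0% and 12.9% of all UMIs in the mural barcodes of the 4 libraries. Among them, barcodes of young replicate 2 with 19, 16 and 14 fibroblast UMIs held other transcripts too. Mitochondrial transcripts made up 10.5%, 13.1% and 12.2% of these, and the tubule gene Slc34a1 had 3, 8 and 8 UMIs. The other 56 barcodes held 0 to 3 fibroblast UMIs, 0 in 42 of them, and 3 to 112 UMIs of the mural genes (median 18). Markers and label go together in these 56, and gene levels below are given for them. Values over all 66 are added for some genes and lists only.

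**Figure D1:**
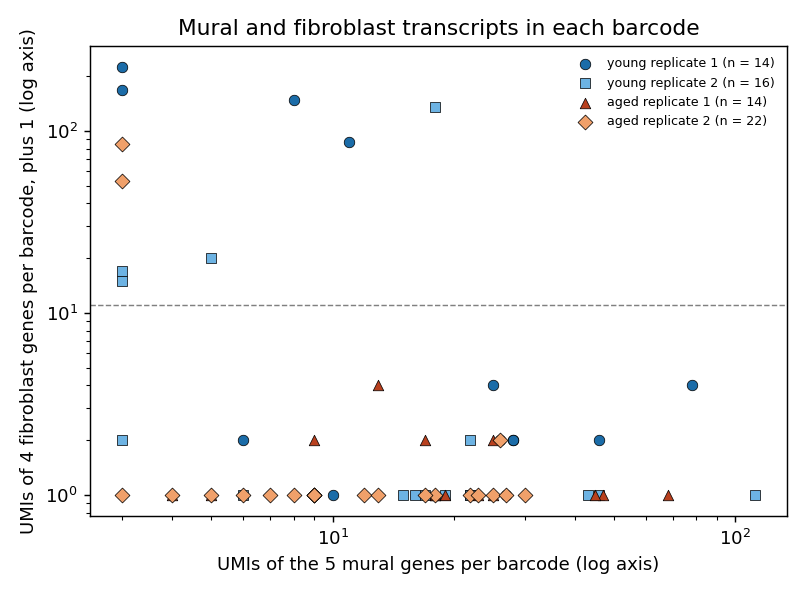
Each point is 1 of the 66 mural barcodes, coloured by library, with UMIs of the 5 defining genes on the horizontal log axis and UMIs of 4 fibroblast genes, plus 1, on the vertical log axis. The 10 barcodes above the dashed line lie apart from the other 56, which hold 0 to 3 fibroblast UMIs, and none of the 10 comes from aged replicate 1.

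Pericyte genes outside the definition were found in most of the 56 barcodes and at lower levels in the other classes. Levels are CPM, the UMIs of a gene scaled to 1e6 summed UMIs over the barcodes of a library; because 3' counts depend on each transcript's end, levels of different genes are not compared. Pdgfrb stood at 1876, 1035, 712 and 1006 CPM, against 64.9 to 88.2 in fibroblast barcodes. It was detected in 87.5% of the 56 barcodes (62% after each barcode was thinned to 1000 UMIs, with 6 shallower ones left out), against 37.8% of 10828 fibroblast barcodes (7.30% thinned). The respective median depths were 2625 and 7231.5 UMIs. Abcc9 reached 443, 431, 653 and 794 CPM and was present in 64.3% of barcodes, against 0.453% of fibroblast barcodes and 2.75% of 873 endothelial barcodes (median 2708 UMIs). That the neighbouring classes hold none of the 5 defining genes follows from how they were defined and is no finding. Barcodes with these genes were left out of those classes. Low levels of other mural genes in them, here and below, follow in part from that choice.

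Both subunit genes of soluble guanylate cyclase, the nitric oxide receptor that makes cyclic GMP, were read in the mural barcodes of every library. Gucy1a3, its alpha subunit, stood at 921, 794, 1029 and 1006 CPM, and Gucy1b3, its beta subunit, at 750, 345, 515 and 397 CPM. Ndufa4l2 and Cox4i2, respiratory chain subunit genes that low oxygen induces, were near 0 in the other classes. Ndufa4l2 stood at 1740, 1294, 1366 and 1800 CPM and in fibroblast, endothelial and macrophage barcodes at 0.185 to 10.5 CPM. Cox4i2 stood at 853, 466, 891 and 1085 CPM, against 0 to 9.96 CPM in the other classes. The ages overlapped for Gucy1b3 and Ndufa4l2. Both aged libraries lay above both young ones for Gucy1a3 (0.18 ± 0.29, log2, edgeR adjusted p = 0.929) and for Cox4i2 (0.55 ± 0.41, log2, edgeR adjusted p = 0.772). Over all 66 barcodes the Cox4i2 difference was 1.27 (adjusted p = 0.236), and it passed the threshold in 2 of 13 alternatives.

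Rgs5 and Acta2 spread differently among the 56 barcodes, which is given as a description. On a scale of UMIs per 10000 in a barcode, Rgs5 had medians of 51.2, 33.7, 34.2 and 34, with maxima of 170, 90.6, 83.1 and 82.2. Acta2 had medians of 3.28, 30.1, 30.8 and 8.77 and maxima of 60.1, 303, 241 and 206, and was 0 in 4, 3, 2 and 8 barcodes. Single barcodes carried much of it: barcodes with 240 and 117 UMIs gave most of the 493 Acta2 UMIs of young replicate 2, and 1 barcode gave 244 of the 354 of aged replicate 1.

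**Figure D2:**
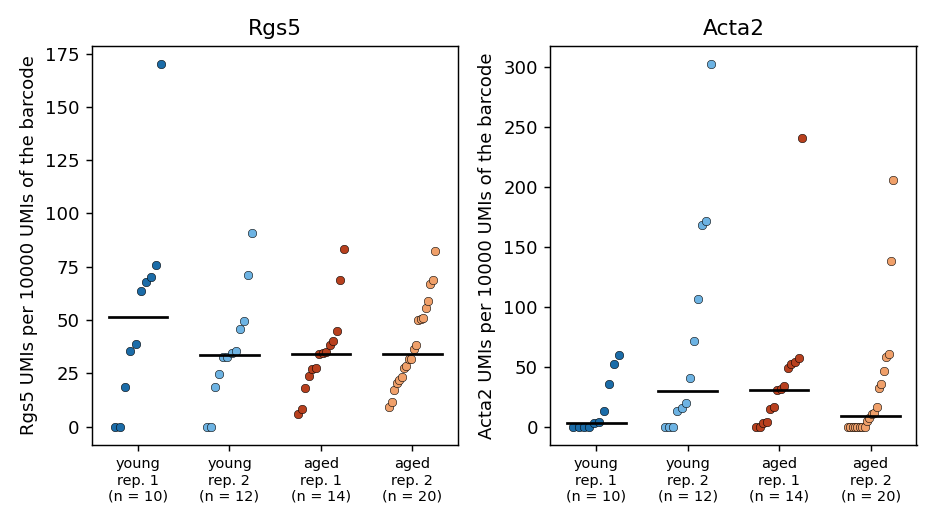
Each point is 1 of the 56 mural barcodes without fibroblast transcripts, and each bar is the library's median of UMIs per 10000. Rgs5 medians lie between 33.7 and 51.2 in the 4 libraries, while Acta2 spreads from 0 to 303 within and between libraries.

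Acta2, Tagln and Myl9 differed more between the young libraries than between the ages. Acta2 stood at 1808, 8505, 7006 and 3997 CPM. Tagln, an actin cross-linker of smooth muscle, stood at 1160, 5486, 4532 and 3573 CPM, and Myl9, the regulatory light chain of smooth muscle myosin, at 1228, 3278, 3424 and 2276 CPM. Young replicate 1 was the lowest library for all 3 genes and young replicate 2 the highest for Acta2 and Tagln, so both aged libraries lay between the young ones. The age differences were 0.05 ± 0.66 for Acta2, 0.23 ± 0.61 for Tagln and 0.26 ± 0.46 for Myl9 (log2, aged over young, ± SE), each smaller than its error. Over all 66 barcodes single libraries decided these values. Without young replicate 2 the differences were 2.73 for Acta2, 2.91 for Tagln and 2.25 for Myl9, all called by edgeR (adjusted p = 4.33e-10, 1.38e-09 and 5.64e-06). Without young replicate 1 they were -0.12, 0.04 and 0.27, with 0 of 3 called.

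Myh11 and Mylk, the kinase that switches myosin on, did not follow Acta2. Myh11 stood at 1467, 2519, 1009 and 529 CPM, with both young libraries above both aged ones. Its difference of -1.43 ± 0.40 had an unadjusted p = 0.011 and an adjusted p = 0.504 in edgeR's quasi-likelihood test over 759 genes. Mylk stood at 580, 1466, 594 and 265 CPM, and its libraries overlapped. Over all 66 barcodes the differences were -0.67 for Myh11 and -0.63 for Mylk, and without young replicate 2 they were 0.21 and 0.60, the opposite direction. Without young replicate 1 they were -1.19 and -1.24, both called by edgeR (adjusted p = 0.0332 and 0.0363).

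Contractile genes are classic targets of serum response factor (SRF), which binds the CArG box of 10 bases. The box reads the same on both strands, so a single search covers both, and no other motif was searched. In the 250 bases before the start site, taken from RefSeq promoters on GRCm38.p6, 4 of the 22 contractile genes with a window (of 27 listed) held a box, against 439 of 27025 genes in all (1.62%). None of the 11 pericyte genes with a window (of 16 listed) held one. The 4 sequences below show these boxes, in capitals, with 20 bases on each side, 5' to 3' on the gene's strand. A match is a description of letters, not of binding, and no match says only that these letters are not in this window.

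Myl9 (chr2:156775283-156775332, plus strand): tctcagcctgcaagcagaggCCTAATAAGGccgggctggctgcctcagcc
Cnn2 (chr10:79988524-79988573, plus strand): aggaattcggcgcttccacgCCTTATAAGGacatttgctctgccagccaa
Vcl (chr14:20929151-20929200, plus strand): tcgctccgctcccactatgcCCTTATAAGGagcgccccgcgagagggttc
Srf (chr17:46556195-46556264, minus strand): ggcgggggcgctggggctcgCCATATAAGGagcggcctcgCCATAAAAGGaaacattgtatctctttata

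The first base of the box lies 161 bases before the start in Myl9, 56 in Cnn2 and 227 in Vcl, and the 2 boxes of Srf itself begin at 82 and 62 bases. Cnn2, an actin-binding calponin, stood at 341, 259, 317 and 238 CPM in the 56 mural barcodes. Vcl, the vinculin that anchors actin at adhesions, stood at 239, 328, 534 and 344 CPM. Srf was read by only 4, 2, 0 and 1 UMIs. The 4 libraries overlapped between the ages for Cnn2 and did not overlap for Vcl (0.54 ± 0.39, log2, unadjusted p = 0.211 in edgeR's test).

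The 56 barcodes were split by Myh11, which the definition did not use, to describe how contractile and pericyte genes spread among them. At least 2 Myh11 UMIs were present in 22 barcodes, 5, 6, 7 and 4 in the 4 libraries, and none in 26 barcodes, 4, 4, 5 and 13 in the libraries. Another 8 held exactly 1 UMI and were left out as near the split, which is a division of a range and not a cell type. The median depth was 3436.5 UMIs on the Myh11 side and 2183 on the other, so the side with 0 Myh11 was shallower.

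Most contractile genes that were compared were higher in the Myh11 barcodes, though not each in every library. Acta2 stood at 3028, 14127, 10211 and 9687 CPM with Myh11, against 521, 4609, 1628 and 979 without it. Tagln stood at 2062, 9024, 6955 and 9516 CPM against 174, 3962, 444 and 931. Myl9, Tpm1 and Tpm2 (tropomyosins), Mylk, Sncg, Mustn1, Lmod1 and Nrip2 were each higher on the Myh11 side in 4 of 4 libraries. Mustn1 is not particular to mural barcodes. It was detected in 42.9% of the 56 (30% thinned) and in 52.6% of fibroblast barcodes (15.5% thinned). Des (desmin), Cnn2 and Vcl were higher in 3 of 4, Cnn1 and Srf in 2 with 0 UMIs on the other side, and the 3 Actg2 UMIs of the split barcodes lay in young replicate 2, on the side without Myh11. Nrip2, a nuclear receptor cofactor gene counted below in the Notch list, averaged 444 CPM with and 117 without Myh11. It had a UMI in 1 of 10828 fibroblast barcodes, 2 of 7640 macrophage barcodes and 0 of 873 endothelial barcodes (which allows a share of up to 0.344%). These classes leave out every barcode with a defining mural gene, so the near absence of Nrip2 from them follows in part from that choice.

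**Figure D3:**
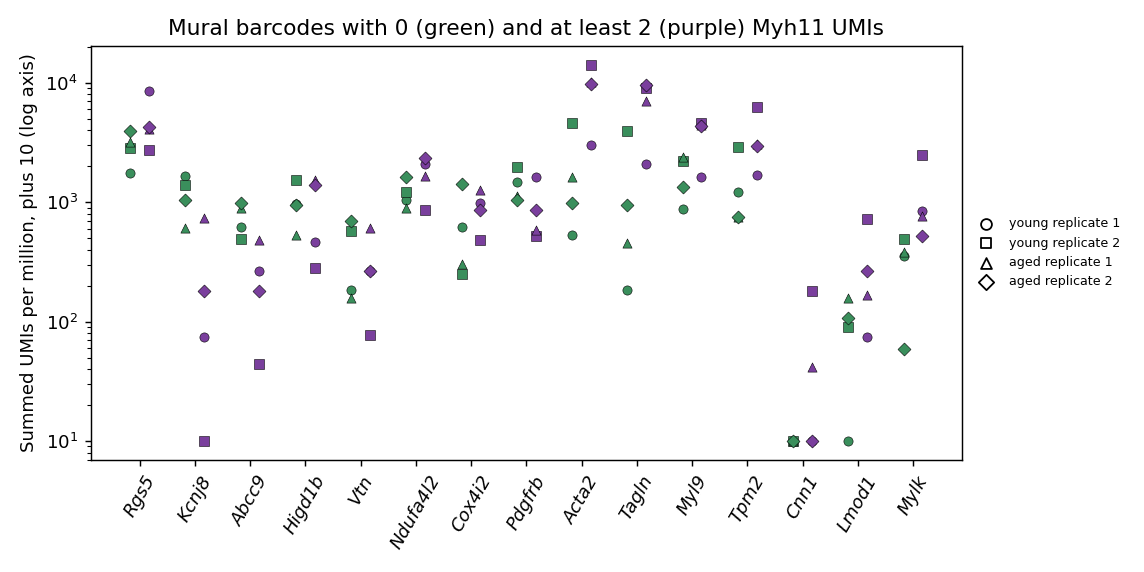
Each symbol is the summed level of a gene, plus 10 CPM, in 1 library on a log axis, for mural barcodes with 0 Myh11 UMIs (green) and with at least 2 (purple). Acta2, Tagln, Myl9 and Tpm2 lie higher in the purple symbols of each library, and Abcc9 lies higher in the green ones.

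Pericyte genes differed in the side on which they were higher. Abcc9 averaged 234 CPM with Myh11 and 740 without, and was lower with Myh11 in 4 of 4 libraries. Kcnj8, one of the defining genes, averaged 241 against 1161 CPM, with aged replicate 1 the exception (727 against 592). Art3, an ADP-ribosyltransferase gene, averaged 227 against 887 CPM and Steap4, a metalloreductase gene, 533 against 1194 CPM, both lower with Myh11 in 4 of 4 libraries. Ndufa4l2 (1716 against 1190 CPM), Cox4i2 (890 against 642 CPM) and Cspg4 (242 against 216 CPM) were higher with Myh11 in 3 of 4 libraries, Vtn in 2 of 4 and Pdgfrb (886 against 1389 CPM) in 1 of 4. After thinning to 1000 UMIs, which left 22 and 20 barcodes, Kcnj8 was detected in 13.6% of Myh11 barcodes and 60% of the others, and Acta2 in 86.4% and 30%. These are among the widest gaps. Kcnj8, like the other defining genes, helped choose the barcodes, so its spread across the split is not independent of that choice. Abcc9 was detected in 22.7% and 40%. Some contractile genes were not detected more often on the Myh11 side after thinning. They were Myl9 (72.7% and 75%), Des (31.8% and 35%), Cnn2 (4.55% and 15%) and Vcl (13.6% and 35%). Before thinning, Kcnj8 and Myh11 were both present in 15 of the 56 barcodes, Kcnj8 alone in 22, Myh11 alone in 15 and neither in 4.

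Rgs5, Notch3 and Higd1b did not divide this way. Rgs5 averaged 4902 CPM with and 2916 without Myh11 and was higher with it in 3 of 4 libraries. Notch3 averaged 1584 and 1294 CPM, and Higd1b 903 and 985. Fabp4, a fatty acid binding protein gene of capillary endothelium and fat, averaged 6613 CPM with and 14405 without Myh11 and was lower with it in 4 of 4 libraries. No test was applied to this split.

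Renin was read in only 3 mural barcodes, all of young replicate 2. Ren1 had 0, 53, 0 and 0 UMIs in the 4 libraries, as 15, 19 and 19 UMIs in barcodes that also held Rgs5 (18, 29 and 18 UMIs), Acta2 (22, 5 and 27) and Tagln (28, 12 and 12). Akr1b7, also made by renin-making cells, had 1 UMI, in a barcode of these 3. The 0 counts of the other libraries each allow up to 3 UMIs, and some mouse strains carry a near-identical further renin gene, so the level is uncertain. One of the 3 barcodes, with 5482 UMIs in all, also held every Cxcl9 UMI (61), every Cxcl10 UMI (29) and 47 of 47 Ccl2 UMIs of the 56 barcodes, chemokines induced in inflammation. Another of the 3 held 37 of the 66 Klf2 UMIs of its library. These barcodes rest on 1 library and were not compared between ages.

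Genes highest in mural over the other 3 classes are listed as a description, because the definition drew the classes apart. Beside Acta2, Myh11, Ndufa4l2, Cox4i2, Ren1 and Nrip2, already given, the first 20 by ratio included Trpc6, a cation channel gene (171, 121, 39.6 and 79.4 CPM), Rgs4, a relative of Rgs5 (307, 276, 416 and 238 CPM), and Ednra, the endothelin receptor of smooth muscle (273, 173, 297 and 238 CPM). Rasl12 and Ephx3 stood at 222 and 177 CPM over all libraries. Each of these was below 3 CPM in fibroblast, endothelial and macrophage barcodes. H2-M9, Pln, P2rx1 and Colec11 also ranked there but came largely from 1 library each: Pln had 0, 13, 0 and 0 UMIs, and 27 of the 37 H2-M9 UMIs of aged replicate 1 lay in 1 barcode. H2-M9 has close relatives among class I genes, so its count is uncertain.

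Transcripts of other cell types were measured in the same 56 barcodes. The 56 were set apart by low counts of Pdgfra, Dpt, Dcn and Lum, and members hold no Pecam1, Cdh5 or Ptprc by definition. Low sums of the fibroblast and endothelial lists therefore follow in part from that choice. The summed fibroblast list was 2047, 2053, 2573 and 2779 CPM, against 45158 to 53453 in fibroblast barcodes, and over all 66 barcodes it was 26729, 11926, 2573 and 9863 CPM. The summed endothelial list was 6959, 8212, 10252 and 16992 CPM, against 28539 to 52143 in endothelial barcodes, and its defining gene Kdr was at 0. Most of this sum was Fabp4, at 6243, 7557, 9559 and 16198 CPM, detected in 94.6% of the 56 barcodes (92% thinned) against 20.1% of fibroblast (5.93% thinned) and 24% of macrophage barcodes (6.02% thinned, median 8067 UMIs). Emcn was detected in 33.9% (10% thinned) against 0.970% of fibroblast barcodes (0.198% thinned). The macrophage list summed to 955, 690, 811 and 1456 CPM, the tubule list to 887, 604, 910 and 662 CPM, the mesothelial list to 34.1, 0, 0 and 0 CPM and the Schwann, red cell and fat list to 0, 69.0, 0 and 26.5 CPM. The lymphocyte and plasma cell list was 102, 34.5, 653 and 450 CPM, higher in both aged libraries, and is returned to with Igkc. The part of other cells' RNA in any age difference was not tested.

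**Figure D4:**
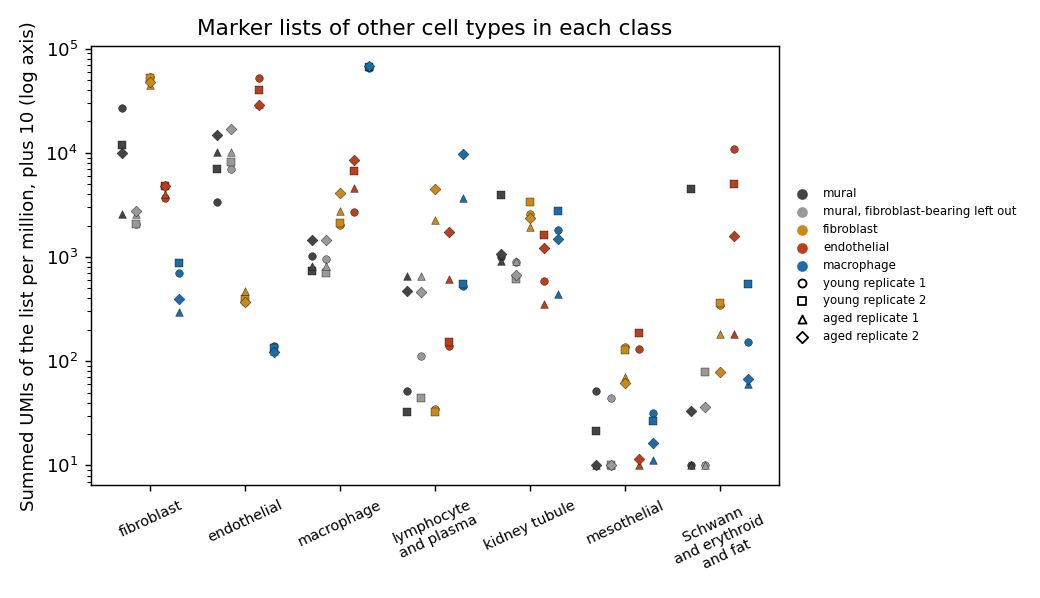
Each symbol is the summed level of a marker list, plus 10 CPM, in 1 library on a log axis, for all 66 mural barcodes, the 56 without fibroblast transcripts, and the fibroblast, endothelial and macrophage classes. The fibroblast list is lower in the 56 than in the 66 barcodes of 3 libraries and equal in aged replicate 1, which held no fibroblast-bearing barcode. This follows from how the 56 were set apart.

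Whether mural barcodes change in number with age was addressed by their share. They were 0.156%, 0.166%, 0.207% and 0.184% of kept barcodes, with exact 95% binomial intervals, covering counting error only, of 0.0852% to 0.261%, 0.0949% to 0.269%, 0.113% to 0.347% and 0.115% to 0.278%. The mean was 0.161% ± 0.00726 in young and 0.195% ± 0.0164 in aged libraries (SD, n = 2), a ratio of 1.21, and the 2 aged libraries lay above the 2 young ones (exact two-sided permutation p = 0.333, the smallest that 2 against 2 libraries can give). The intervals of the 4 libraries overlapped.

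The ratio depended on what was counted. Without the 10 fibroblast-bearing barcodes the shares were 0.111%, 0.125%, 0.207% and 0.167%, a ratio of 1.59. Among barcodes without Ptprc the ratio was 2.00, and with both changes 2.62. Leaving out barcodes with the highest doublet scores gave 1.06. Per 100 endothelial barcodes the direction was the opposite, with 10.1, 19.5, 7.65 and 4.69 mural barcodes, means of 14.8 ± 6.68 and 6.17 ± 2.09 (SD, n = 2, exact two-sided permutation p = 0.333). Without the 10 fibroblast-bearing barcodes the ages overlapped, at 7.19, 14.6, 7.65 and 4.26 per 100 endothelial barcodes (exact two-sided permutation p = 0.667). The number of cells of a type in the capsule and their release in the digest cannot be told apart. The excluded barcodes with endothelial transcripts (32, 26, 5 and 16) were more frequent in the young libraries. They outnumbered the members of both young libraries (14 and 16) but not those of the aged ones (14 and 22). All shares above leave them out, so the direction of those shares holds for the members only.

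Gene levels were compared between ages on UMIs summed per library. No gene passed an adjusted p of 0.05 in edgeR's test, either among 1086 genes over all 66 barcodes (0% called) or among 759 genes over the 56 (0% called). At an unadjusted p under 0.05, 56 genes were higher and 77 lower in aged over the 66 barcodes, and 22 higher and 34 lower over the 56. DESeq2 called 2 higher genes, Tmem176a and Tmem176b, and 10 lower genes over the 66 barcodes, and 0 over the 56. The lower ones were Fn1, Mfap5, Pi16, Dpt, Timp2, Col1a1, Col1a2, Fbn1, Ifi27l2a and Col3a1. Single libraries moved these counts: without young replicate 1, young replicate 2, aged replicate 1 or aged replicate 2 in turn, 24, 37, 2 and 10 genes were called higher and 47, 60, 8 and 40 lower over the 66 barcodes. Over the 56 the counts were 25, 0, 1 and 4 higher and 15, 0, 3 and 3 lower. The lone library of an age in these fits is assumed to vary like the other age.

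Separation of the libraries was common without being called. The young and aged libraries did not overlap for 489 of the 1086 genes (45%) and for 280 of the 759 genes (36.9%), so lack of overlap in a single gene is no result. The genes named next are those with the smallest p in each direction, given as values.

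Tmem176a and Tmem176b, multi-pass membrane protein genes that lie side by side on chromosome 6 (GRCm38, Tmem176a at 48840919 to 48847071 on the plus strand, Tmem176b at 48833818 to 48841496 on the minus strand), were higher in both aged libraries. Tmem176a stood at 171, 155, 1108 and 847 CPM, from 5, 9, 56 and 32 UMIs, a difference of 2.53 ± 0.38 (log2, edgeR adjusted p = 0.231). Tmem176b stood at 375, 224, 1405 and 1112 CPM, a difference of 2.07 ± 0.40 with the same adjusted p. Over all 66 barcodes the differences were 3.14 and 2.52 with adjusted p = 0.0659 each. By these positions the genes overlap at their starts, on opposite strands. Their 3' ends, where the kit counts transcripts, lie apart. Macrophage barcodes held 646 to 744 CPM of Tmem176a, and the macrophage list was 955, 690, 811 and 1456 CPM in the mural barcodes; its part in the difference was not tested.

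Sept4, a septin of the cytoskeleton, and Mt1, a metal-binding metallothionein, also ranked among the higher genes. Sept4 stood at 341, 362, 1009 and 1165 CPM, a difference of 1.54 ± 0.31 (adjusted p = 0.231 in edgeR), and at 2.18 ± 0.40 over the 66 barcodes (adjusted p = 0.118). Mt1 stood at 136, 104, 574 and 662 CPM, a difference of 2.32 ± 0.41 (edgeR adjusted p = 0.231). Over the 66 barcodes Mt1 stood at 964, 351, 574 and 599 CPM and the difference was -0.23, the opposite direction. Over the 66 it was 0.70 without young replicate 1. Fibroblast barcodes held 739, 810, 1640 and 1566 CPM of Mt1.

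Ccl11 (eotaxin, which attracts eosinophils) and Igkc (the constant part of antibody kappa chains) need their barcodes and background beside them. Ccl11 stood at 102, 104, 1009 and 503 CPM, but 39 of the 51 UMIs of aged replicate 1 lay in 1 barcode. Igkc had 0, 0, 20 and 13 UMIs in the 56 barcodes, in 18 of them. Plasma cells make this transcript, and it was higher in the aged libraries of each class: fibroblast barcodes held 2.47, 2.89, 1794 and 3890 CPM, macrophage barcodes 9.13, 15.6, 2381 and 7196 CPM and endothelial barcodes 75.6, 3.32, 306 and 1313 CPM. Mural barcodes, at 0, 0, 396 and 344 CPM, were below fibroblast and macrophage barcodes in both aged libraries. Cst3, the protease inhibitor cystatin C, stood at 2831, 1639, 4413 and 4552 CPM (0.92 ± 0.39, adjusted p = 0.628; over the 66 barcodes 1.56 with adjusted p = 0.162).

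Collagen IV was lower in both aged libraries. Col4a1 stood at 2490, 2364, 633 and 1006 CPM, means of 2427 ± 89.6 and 820 ± 263 (SD, n = 2), a difference of -1.66 ± 0.34. Col4a2, its partner in the same trimer, stood at 1569, 1673, 574 and 635 CPM, a difference of -1.50 ± 0.27. Of the UMIs of young replicate 2, 74 of 137 for Col4a1 and 41 of 97 for Col4a2 lay in 1 barcode of 13586 UMIs. Without it that library stood at 1420 and 1262 CPM, still above both aged ones, and the differences were -1.38 ± 0.42 and -1.33 ± 0.33 (edgeR adjusted p = 0.38 and 0.289). With it, each had an adjusted p = 0.231 in edgeR, and over the 66 barcodes the differences were -1.35 and -1.14. The genes start head to head on chromosome 8 of GRCm38, Col4a1 at 11198423 to 11312826 on the minus and Col4a2 at 11312805 to 11449287 on the plus strand. In endothelial barcodes Col4a1 was also lower, at 1445, 1205, 707 and 647 CPM, and in fibroblast barcodes it was level, at 381, 388, 402 and 376 CPM.

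Of the basement membrane list, 6 of 17 genes could be tested over the 56 barcodes and 0 passed the adjusted threshold. At an unadjusted p under 0.05, 4 were lower, Col4a1, Col4a2, Col18a1 (the source of endostatin) and Sparc (a collagen-binding matrix protein), and 0 higher, beside 34 lower and 22 higher of all 759 genes. The median difference was -1.19, beside 0.04 over all 759 genes. Col18a1 stood at 443, 380, 139 and 26.5 CPM, from 13, 22, 7 and 1 UMIs. Sparc stood at 6072, 6107, 3404 and 3652 CPM (-0.87 ± 0.29, edgeR adjusted p = 0.615), with 153 of the 354 UMIs of young replicate 2 in the barcode just described (4529 CPM without it), and it was lower in aged fibroblast barcodes too, at 9542, 9938, 2220 and 2393 CPM.

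The genes with the smallest p among the lower ones over all 66 barcodes included fibroblast matrix genes whose UMIs lay mostly in the 10 fibroblast-bearing barcodes. Fn1 (fibronectin) stood at 1132, 635, 19.8 and 46.1 CPM over the 66 (-4.77 ± 0.64, edgeR adjusted p = 0.0659) and at 68.2, 104, 19.8 and 52.9 over the 56. Mfap5 and Loxl1, of elastic fibres, and Smpd3, a sphingomyelinase gene, had adjusted p = 0.102, 0.164 and 0.102 over the 66, and too few UMIs over the 56 to be tested, with Smpd3 at 0. Col1a1 went from -2.35 (adjusted p = 0.102) to -0.64 ± 0.62. The interstitial matrix list had 11 of 22 tested genes lower and 1 higher at an unadjusted p under 0.05 over the 66 (77 lower and 56 higher of all 1086), with a median of -1.65, and 2 of 13 lower and 0 higher over the 56, with a median of -0.39. Mgp, the inhibitor of calcification in vessel walls, stood at 3070, 1001, 3266 and 4023 CPM.

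Atp5f1 (a subunit of ATP synthase), Zfhx3 (a transcription factor) and Ccnd2 (cyclin D2) completed the lowest p over the 56 barcodes. Atp5f1 stood at 443, 535, 178 and 185 CPM, from 13, 31, 9 and 7 UMIs. Zfhx3 stood at 580, 569, 178 and 265 CPM, and Ccnd2 at 341, 414, 139 and 132 CPM. The edgeR adjusted p were 0.433, 0.456 and 0.456.

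**Figure D5:**
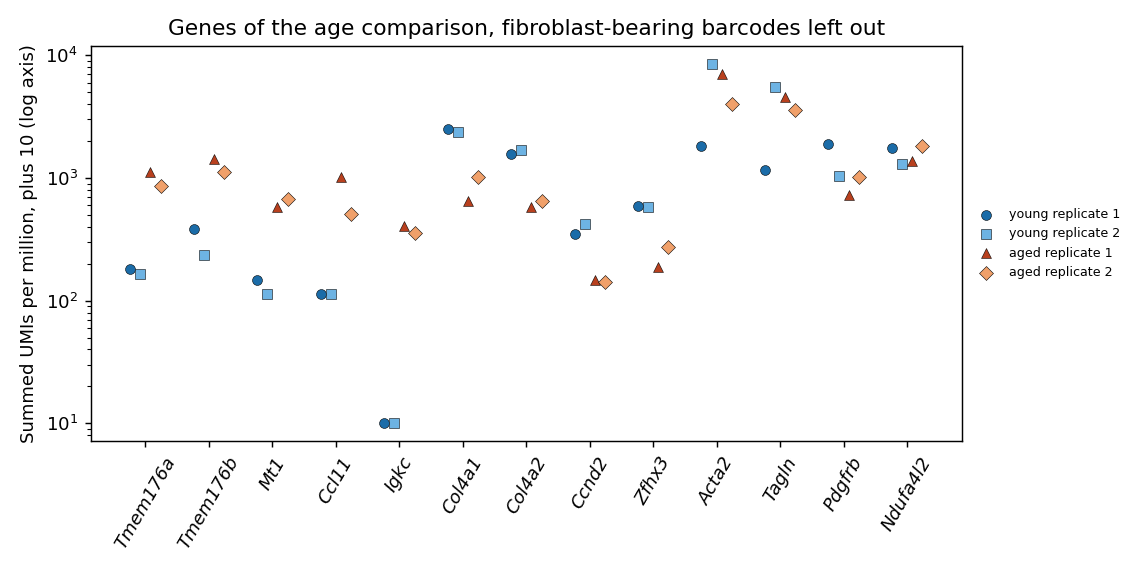
Each symbol is the summed level of a gene, plus 10 CPM, in 1 library on a log axis, over the 56 mural barcodes without fibroblast transcripts. For Tmem176a, Tmem176b, Mt1, Ccl11 and Igkc both aged libraries lie above both young ones, for Col4a1, Col4a2, Ccnd2 and Zfhx3 below, as for Pdgfrb by a narrow gap (1035 against 1006 CPM), and for Acta2, Tagln and Ndufa4l2 the ages overlap; none passed the adjusted threshold.

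The pathway lists are given by their counts at an unadjusted p under 0.05 over the 56 barcodes, beside 22 higher and 34 lower of all 759 genes; 0 genes of any list passed the adjusted threshold. The 5 defining genes are left out of all list counts and medians. Members called highest are named by mean CPM only, which does not compare levels of different genes. Where such a member is a defining gene, its level follows from how the barcodes were chosen. Of 10 tested pericyte genes outside the definition, 1 was higher (Vtn, the adhesion protein vitronectin, at 239, 207, 455 and 556 CPM, 1.12 ± 0.37, edgeR adjusted p = 0.615) and 0 lower, with a median of 0.16. Pdgfrb did not reach that bound (-0.84 ± 0.43, unadjusted p = 0.0993), and over the 66 barcodes its direction turned without young replicate 1 (0.06) and without aged replicate 1 (0.10). Of 15 contractile genes, 0 were higher and 2 lower, Myh11 and Mylk, with a median of -0.30. Over the 66 barcodes 5 of 10 pericyte genes were higher and 0 lower (median 0.78), beside 56 higher and 77 lower of all 1086. Of 16 contractile genes, 1 was higher and 0 lower over the 66 (median 0.43). Over the 56, the vasoactive receptors and channels had 0 of 10 either way (median 0.02), with the defining genes Rgs5 and Kcnj8 their highest members. The renin and mesangial list had 3 tested genes, the Notch list 3 (Notch3, Hes1 and Nrip2 among the highest) and the growth factor list 5, with 0 either way in each. The mural transcription factors had 0 of 8 (median 0.02), with Ebf1 and Epas1 the highest.

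Stress and immune lists were read the same way. The chemokine list had 1 of 6 higher, Ccl11, and the interferon list 1 of 8 higher, Ifitm1, an antiviral membrane protein gene at 205, 604, 1603 and 1350 CPM (1.70 ± 0.42, edgeR adjusted p = 0.456). Ifitm3, the interferon gene with the highest level, differed by 0.01. The class I presentation list had 2 of 6 lower, the chaperones Calr and Pdia3, while the class I chain H2-D1 differed by 0.73 and its partner B2m by 0.43. The senescence list had 1 of 4 lower, Ccnd1, and the immediate early list 1 of 20 higher and 2 lower, with a median of 0.04 and with Fos at -0.39 and Jun at 0.40. The oxidative phosphorylation list had 0 of 30 higher and 1 lower (Cox5a), with a median of -0.13.

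Of the mitochondrially encoded genes, all 7 tested had a difference below 0, 3 with an unadjusted p under 0.05, and the median was -0.74. mt-Nd4, a subunit of complex I, stood at 1603, 2691, 1069 and 953 CPM. Fibroblast, endothelial and macrophage barcodes were lower in the aged libraries as well, at 1779, 1927, 996 and 1093 CPM, 1938, 2021, 966 and 977 CPM, and 1912, 2070, 1018 and 1232 CPM. The interaction of mural against fibroblast barcodes for mt-Nd4 was -0.26 ± 0.53 (edgeR adjusted p = 1).

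Whether the age difference of a gene differed between classes was tested against fibroblast and endothelial barcodes of the same libraries, as a class by age interaction with library as a block. Against fibroblasts, 54 of 13049 genes were called over the 66 barcodes (0.414%), 11 with a higher and 43 with a lower mural difference. Over the 56, 5 of 12946 were called (0.0386%), of which 4 were among the 54. They were Cxcl9, Ccl2 and Cxcl10, which lay in the single barcode with chemokine UMIs, Gucy1a3 and Col18a1. Without the barcodes of highest doublet scores 0 genes were called over the 66 by edgeR, with 95 higher and 361 lower at an unadjusted p under 0.05.

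Gucy1a3 stood at 31.9, 26.1, 6.36 and 8.22 CPM in fibroblast barcodes, while the mural libraries lay between 794 and 1029 CPM. The interaction was 2.21 ± 0.44 (log2, edgeR adjusted p = 0.00169), and its mural age difference alone was 0.18 ± 0.29. Col18a1 was lower in aged mural barcodes and stood at 43.0, 34.2, 60.8 and 52.2 CPM in fibroblasts, an interaction of -2.82 ± 0.65 (edgeR adjusted p = 0.0361) that rests on 43 mural UMIs in all. Leaving out either aged library left 1 call over the 56, Cxcl9, so neither Gucy1a3 (2.03 and 2.57) nor Col18a1 (-4.43 and -2.12) was called in those fits. Leaving out young replicate 1 gave 14 calls and leaving out young replicate 2 gave 11. Gucy1a3 was called in both (2.12 and 2.43, edgeR adjusted p = 1.77e-04 and 4.16e-04), and Col18a1 without young replicate 1 (-2.89, edgeR adjusted p = 0.014) but not without young replicate 2 (-2.56, edgeR adjusted p = 0.501).

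Against endothelium, 26 of 4966 genes were called over the 66 barcodes (0.524%), 14 higher and 12 lower, and 39 of 4677 over the 56 (0.834%), with 15 in both. Fabp4 stood at 38147, 27764, 11989 and 11151 CPM in endothelial barcodes while mural barcodes went the other way, an interaction of 2.47 ± 0.58 over the 56 (edgeR adjusted p = 0.00432). Cd36, a fatty acid transporter, stood at 4080, 2725, 1249 and 1088 CPM in endothelium and at 750, 380, 871 and 688 in mural barcodes (2.18 ± 0.53). Igfbp7, a growth factor binding protein of vessel walls, stood at 2106, 1895, 777 and 761 CPM in endothelium and at 4844, 5676, 6808 and 6564 in mural barcodes (1.85 ± 0.49). In each of these 3 genes both aged endothelial libraries lay below both young ones, but the genes were picked by a small interaction p. How often endothelial libraries separated by age over all genes was not counted, so this is a description.

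Cxcl10 had the smallest p against endothelium over the 56 (-12.56 ± 1.58, edgeR adjusted p = 1.04e-11), and Cxcl9 and Ccl2 were also called lower. All UMIs of these chemokines over the 56 lay in the single barcode described with renin. Mt1 was called higher over the 56 (4.09 ± 0.59, edgeR adjusted p = 6.80e-09). Sept4, Pcolce, Col3a1, Rarres2 and Zfhx3 were among the other calls. Sept4 stood at 279, 282, 143 and 127 CPM in endothelium (interaction 2.78 ± 0.50 over the 56, edgeR adjusted p = 1.05e-05). Pcolce, an enhancer of procollagen processing, stood at 84.0, 129, 12.2 and 9.31 CPM in endothelium and at 512, 259, 495 and 609 in mural barcodes (4.03 ± 0.59). Col3a1 and Rarres2 (chemerin) were also called, with Col3a1 at 399, 368, 4.08 and 53.0 CPM in endothelium and at 887, 1380, 831 and 1112 in mural barcodes. Fibroblast barcodes, where these genes are highest, went from 6534 and 6241 to 1937 and 1859 CPM of Col3a1, and the part of fibroblast RNA in the endothelial values was not tested. Zfhx3 went the other way, at 50.4, 83.0, 171 and 158 CPM in endothelium (-2.59 ± 0.56, edgeR adjusted p = 8.39e-04). Without library as a block only Pcolce and Sept4 were called over the 66 barcodes, and leaving out single libraries gave 74, 92, 31 and 43 genes over the 66 and 51, 26, 7 and 17 over the 56. Leaving aside Mt1 and the chemokines, the 8 genes named here against endothelium kept their direction over the 56 when either young library was left out. Without aged replicate 1 only Pcolce of the 8 was called, and without aged replicate 2 Pcolce, Col3a1 and Rarres2, while the direction of all 8 stayed as it was. For Fabp4 the values without an aged library were 2.91 and 2.10 (edgeR adjusted p = 1 in both).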

How the data were processed

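Single-cell RNA was measured in 4 libraries, 2 per age. The deposited values are UMI counts per gene and barcode, made by the authors with Cell Ranger on GRCm38; its version is 6.0.2 per the submitters' processing notes and 6.0.1 per the file headers. The files held 9712, 10368, 7067 and 12289 barcodes (young 1, young 2, aged 1, aged 2), of which 8988, 9637, 6763 and 11973 were kept. No doublet caller was used for the reported values; Scrublet, as run in scanpy 1.11.5 at 0.8% per 1000 barcodes, was an alternative.

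The members and gene lists were chosen with earlier results of these data known. Raw counts were summed per library: 71571, 88212, 50527 and 43396 UMIs in the mural barcodes, and 29314, 57963, 50527 and 37783 without fibroblast-bearing ones. Sums were tested with edgeR 4.0.16 (R 4.3.3): TMM, filterByExpr, quasi-likelihood test, Benjamini-Hochberg adjustment over all tested genes, threshold 0.05. DESeq2 1.42.0 was an alternative. Errors of log2 differences are the difference over the square root of its F. The class by age interactions had library as a block. Fits were tested on simulated data.

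Fibroblast barcodes had at least 1 UMI of Pdgfra and at least 3 of Pdgfra, Dpt, Dcn and Lum. Endothelial barcodes had at least 3 UMIs of Pecam1, Cdh5, Kdr and Emcn from at least 2 of them, with Pecam1 or Cdh5. Macrophage barcodes had Ptprc and at least 3 UMIs of C1qa, C1qb, C1qc, Adgre1 and Csf1r from at least 2 of them. Each class held 0 UMIs of the 5 mural genes and of the other classes' defining genes among Pdgfra, Pecam1, Cdh5 and Ptprc.

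Genes are named by a rule: the defining and excluding genes; of each list the members that passed, or the 2 with the highest mean CPM; the 5 with the smallest p in each direction where fewer passed; the 5 with the smallest p in each interaction; and the 20 with the highest ratio of mural to other classes at 50 CPM or more. Genes named outside it were chosen after their values were seen. Of 474 listed genes 471 were found, 4 under an older symbol. Gene positions are those of GENCODE M21, which had 52403 of the 52636 gene identifiers.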

Additional observations from a re-analysis of the deposited data

Results flagged for a closer look

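Over all 66 mural barcodes the class by age interactions called 54 genes against fibroblasts and 26 against endothelium. The 5 with the smallest p in each comparison are given here. In these, the age difference of mural barcodes differed from that of the neighbouring class of the same libraries by edgeR's test. Against fibroblasts these were Cxcl9 (adjusted p = 1.63e-09), Cfd (adjusted p = 8.83e-09), Fn1 (adjusted p = 3.64e-08), Ccl2 (adjusted p = 8.85e-07) and Pi16 (adjusted p = 1.93e-06). Few barcodes carry these values. All 61 Cxcl9 UMIs lay in 1 barcode of young replicate 2. Cfd, the complement factor D that fat cells secrete, stood at 0, 3424, 0 and 0 CPM over the 66 barcodes, while the 56 without fibroblast transcripts held 0, 1, 0 and 0 Cfd UMIs. Ccl2 stood at 168, 533, 0 and 0 CPM. Fn1 had an interaction of -4.70 ± 0.69 over the 66 and -1.18 ± 1.15 over the 56 barcodes. Pi16, a fibroblast gene, had an interaction of -3.28 ± 0.53, from 1942, 1610, 19.8 and 323 CPM over the 66 and 68.2, 121, 19.8 and 0 CPM over the 56.

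Against endothelium they were Fabp4, Cd36, Pcolce and Sept4 (edgeR adjusted p = 0.00407 each) and Igfbp7 (edgeR adjusted p = 0.00467), each with a higher mural than endothelial age difference. The interactions over the 66 barcodes were 2.90 ± 0.41 for Fabp4, 2.68 ± 0.40 for Cd36, 4.13 ± 0.62 for Pcolce, 3.32 ± 0.50 for Sept4 and 2.28 ± 0.35 for Igfbp7 (log2, ± SE).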

How the results depend on the processing

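The share ratio of 1.21 was 2.00 over barcodes without Ptprc, 1.06 without likely doublets, 1.46 without Pdgfra-bearing members, 1.59 without fibroblast-bearing members and 2.62 with the latter and without Ptprc, and 1.14 to 1.29 with a library left out. The 0 higher and 0 lower of 1086 genes in the age test became 2 and 10 with DESeq2. The counts became 14 and 64 of 12579 without a filter on low counts. With at least 5 defining UMIs, where Sept4, Tmem176a and Tmem176b were higher, the counts were 3 and 18 of 846. With a library left out they were 2 to 37 and 8 to 60, and over the 56 barcodes 0 to 25 and 0 to 15. Other normalization (RLE) and leaving out doublets or Pdgfra gave 0 and 0, as did leaving out the barcode with the most Col4a1 UMIs over the 56 (chosen after seeing the data). Whether replicate numbers pair the libraries could not be told from 2 libraries per age (correlation of same-numbered deviations -0.295, and -0.144 over the 56 barcodes). A replicate block gave 0 and 0, and the crossed pairing, chosen after seeing the data, 23 and 43, and 0 and 0 over the 56. The 54 calls against fibroblasts were 2 without library as a block (Gucy1a3 and Fn1), 0 without doublets, 5 over the 56 barcodes, and 6 to 90 with a library left out (1 to 14 over the 56). The 26 against endothelium were 2 without the block, 45 without doublets, 51 without a filter, 39 over the 56, and 31 to 92 with a library left out (7 to 51 over the 56).

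Of 366 alternative values of 29 genes, 275 kept direction and side of the threshold, 82 passed it and 9 reversed. Mt1 (-0.23) became 0.70 without young replicate 1 (-0.81 to 0.70 with a library left out), 0.88 without Pdgfra and 2.32 over the 56 barcodes. Acta2 (0.67) became -0.12 without young replicate 1, and reached 2.73 without young replicate 2. Without young replicate 2, Myh11 (-0.67) became 0.21 and Mylk (-0.63) 0.60, and without aged replicate 1 they were -1.37 and -1.40. Ndufa4l2 (0.68) became -0.0192 over the 56. Pdgfrb (-0.09) became 0.06 without young replicate 1 and 0.10 without aged replicate 1, and was -0.24 to 0.10 with a library left out and -0.84 over the 56. The cause of each was not tested. Each library gives 14 to 22 mural barcodes.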
